A study of Homo sapiens with 15 samples.

Results

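miR-338 and miR-3065 are made from one short stretch of human chromosome 17 that is read on both strands, and their 4 mature forms were followed across every library of this small RNA study. The members, hsa-miR-338-3p, hsa-miR-338-5p, hsa-miR-3065-5p and hsa-miR-3065-3p, were taken by name and are 4 of the 1619 entries of the miRNA count table. They were chosen by their measured levels. miR-338-3p was already known to be low in HDM samples relative to cell pellets and on some plates. Levels, and member folds of HDM or pellets against each other or against plates, are therefore given as description, without a test. Only filtered against unfiltered HDM and HF7 against HF6 plates were tested for the members.

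DiFi, a long-established human line from a colorectal cancer, was the source of all libraries, and the labels name no treatment, genotype or other line. The groups were 2 filtered HDM samples (HF6 and HF7), 2 unfiltered HDM samples (HF6 and HF7), 2 cell pellets (HF6 and HF7), 3 libraries of HF7 plate cells and 3 of HF6 plate cells (plates 1, 2 and 3 of each), and a single library of HDM media and of regular media (1 each). The labels spell out neither HDM nor HF, do not say whether same-numbered samples came from one culture, and a sample of HDM medium without cells was not analysed here. A p-value therefore reflects just the scatter among these samples, which may be technical. The series concerns ways of culturing the cells to collect secreted carriers of small RNA.

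A miRNA gene is transcribed as a longer RNA that folds back into a hairpin. Successive cuts by Drosha and Dicer release a short duplex, and its strands are the 5p and 3p arms, named after the end of the hairpin they come from. Usually one arm is kept in an Argonaute protein, where bases 2 to 8, the seed, choose the target messenger RNAs, and the other arm is largely lost. miR-338 lies inside AATK, the gene of a brain-enriched kinase, and is known from the maturation of oligodendrocytes, the myelin-forming cells of the brain, where it acts beside miR-219. In colorectal and other carcinomas miR-338-3p has been described as a miRNA that restrains growth and invasion. Little is established about the role of miR-3065.

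The mature sequences are shown because the locus carries 4 different seeds, marked in capitals (RefSeq sequences on GRCh38.p14, identical in bases and position to the entries of the table).
hsa-miR-338-5p: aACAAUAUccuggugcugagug
hsa-miR-338-3p: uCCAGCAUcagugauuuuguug
hsa-miR-3065-5p: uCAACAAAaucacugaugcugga
hsa-miR-3065-3p: uCAGCACCaggauauuguuggag
No other entry of the table shared a seed with any of them. The hairpins are shown with both arms in capitals, so that the mirror arrangement can be read.
MIR338: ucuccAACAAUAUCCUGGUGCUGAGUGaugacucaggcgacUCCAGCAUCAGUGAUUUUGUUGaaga
MIR3065: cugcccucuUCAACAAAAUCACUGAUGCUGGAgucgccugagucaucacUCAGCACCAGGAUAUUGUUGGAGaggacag

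MIR338 occupies chr17:81125883-81125949 on the minus strand and MIR3065 chr17:81125877-81125955 on the plus strand (GRCh38). In GENCODE release 29 both lie within the AATK gene (chr17:81117295-81166077, minus strand) and overlap none of its exons, so that MIR338 is intronic in the sense direction and MIR3065 is antisense to the host. Because the strands mirror each other, the 3p arm of one gene lies opposite the 5p arm of the other. miR-338-3p and miR-3065-5p overlap by 22 bases, and all 22 bases of miR-338-3p are complementary to miR-3065-5p. miR-338-5p and miR-3065-3p overlap by 19 bases, and that stretch of 19 is complementary. The closest other entry of the table lay 6 mismatches from miR-338-3p and 7 from each of the other members, and each member has 1 location. The labels do not say whether counting used the strand, and without it reads of opposing entries could not be told apart. Some other opposing entries had very uneven counts, as miR-203a-3p with 501849 and miR-203b-5p with 34, or miR-24-3p with 435480 and miR-3074-5p with 255. Others were closer, as miR-203b-3p with 1926 and miR-203a-5p with 706. Use of the strand was not tested.

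The libraries held from 205738 counts (unfiltered HDM, HF7) to 4896917 (regular media). The HF7 pellet was also shallow, with 313380. As a check of the cell line, 6 markers of colon epithelium together reached 199600 to 254100 CPM, a level that divides each count by its library's total. miR-122-5p of liver stayed at or under 0.831 CPM, and miR-143-3p of stromal cells at or under 1.06 CPM. The 4 leukocyte markers summed to between 1379 and 4104 CPM, of which miR-142-3p held up to 2839 CPM while miR-223-3p, a myeloid marker, stayed at or under 1.43 CPM. The 3 muscle markers reached 95.7 CPM in a pellet. Of 14 oligodendrocyte and neural miRNAs 12 were listed. Their sum of 34150 to 51910 CPM came almost wholly from miR-7-5p, which endocrine and epithelial cells also make, while the neuron-defining miR-124-3p had 3 counts over all 14 libraries and miR-219a-2-3p had 1. Levels below are CPM after TMM scaling in edgeR, which corrects for differences in composition. Fold changes come from 1 edgeR fit of the 12 replicated libraries over the 534 miRNAs that passed its filter on low counts, and all 4 members passed. A fold sets a miRNA against the rest of its library, so less of a miRNA and more of the rest cannot be told apart, nor can fewer contributing cells and less RNA per cell.

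By mean level over 14 libraries miR-338-5p ranked 200 of 534 miRNAs at 82.2 CPM, miR-338-3p 206 at 71.0 CPM, miR-3065-5p 298 at 16.2 CPM and miR-3065-3p 433 at 4.13 CPM. Both arms of miR-338 were thus present at similar levels, and the plus strand gave fewer reads than the minus strand. Summed over both arms, miR-3065 held between 0 and 20.8% of the counts of the 4 entries.

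miR-338-3p, the arm on which most functional work has been done, had 74 and 55 counts in filtered HDM (HF6 and HF7) and 107 and 6 in unfiltered HDM, against 538 and 42 in the pellets. Scaled, this was 27.4 and 30.9 CPM in filtered HDM, 43.3 and 24.8 CPM in unfiltered HDM, and 186.9 and 151.8 CPM in pellets. The HDM samples did not overlap with the pellets. On HF7 plates 1, 2 and 3 it stood at 119.4, 33.3 and 54.6 CPM, and on HF6 plates at 128.0, 35.5 and 67.5 CPM. Plate 1 was the highest and plate 2 the lowest in both sets, and plate 2 lay within the range of the HDM samples. From high to low the means were 169 ± 24.9 CPM in pellets (SD, n = 2), 77.0 ± 47.0 on HF6 plates and 69.1 ± 44.8 on HF7 plates (n = 3 each), 34.1 ± 13.0 in unfiltered HDM and 29.2 ± 2.49 in filtered HDM (n = 2 each). Neighbouring plate and HDM groups overlapped in their libraries, and the pellets alone stood clear of every other library.

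miR-338-5p, the opposite arm of the same hairpin, varied less. It had 303 and 163 counts in filtered HDM, 207 and 21 in unfiltered HDM, and 395 and 31 in pellets. Scaled, it stood at 112.2 and 91.7 CPM in filtered HDM, at 83.7 and 86.9 CPM in unfiltered HDM and at 137.3 and 112.0 CPM in pellets. The filtered samples reached into the range of the pellets. On HF7 plates 1, 2 and 3 it was 86.2, 48.1 and 58.8 CPM, and on HF6 plates 99.4, 40.1 and 61.8 CPM. Here the HDM samples lay with plate 1, above plates 2 and 3 and below the HF6 pellet. The order of the means was pellets at 125 ± 17.8 CPM, filtered HDM at 102 ± 14.5, unfiltered HDM at 85.3 ± 2.28, HF6 plates at 67.1 ± 30.0 and HF7 plates at 64.4 ± 19.6 CPM, with each neighbouring pair except filtered and unfiltered HDM overlapping in its libraries.

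miR-3065-5p, antisense to miR-338-3p, had 23 and 13 counts in filtered HDM, 35 and 0 in unfiltered HDM, and 119 and 6 in pellets. That is 8.52 and 7.31 CPM in filtered HDM, 14.2 and 0 in unfiltered HDM, and 41.4 and 21.7 CPM in pellets. The count of 0 belongs to the shallowest library, where 3 counts are 14.6 CPM by total counts. On that scale the filtered samples stood at 9.27 and 7.59 CPM, fewer than 3 counts at that depth. The HF6 unfiltered sample stood at 15.5 CPM, just above that mark. On HF7 plates 1, 2 and 3 it stood at 42.0, 11.1 and 3.64 CPM, and on HF6 plates at 47.2, 8.53 and 2.44 CPM. Plate 1 was as high as the HF6 pellet, and plate 3 was the lowest cell sample in both sets, unlike miR-338-3p, for which plate 2 was lowest. miR-3065-3p, the scarcest form, had 7 and 2 counts in filtered HDM, 2 and 0 in unfiltered HDM, and 34 and 2 in pellets. It reached 23, 11 and 6 counts on HF7 plates 1, 2 and 3 and 45, 7 and 3 on HF6 plates. Plate 1 and the HF6 pellet, between 9.67 and 12.7 CPM, held its highest levels, and the HDM samples did not exceed 2.59 CPM.

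**Figure D1:**
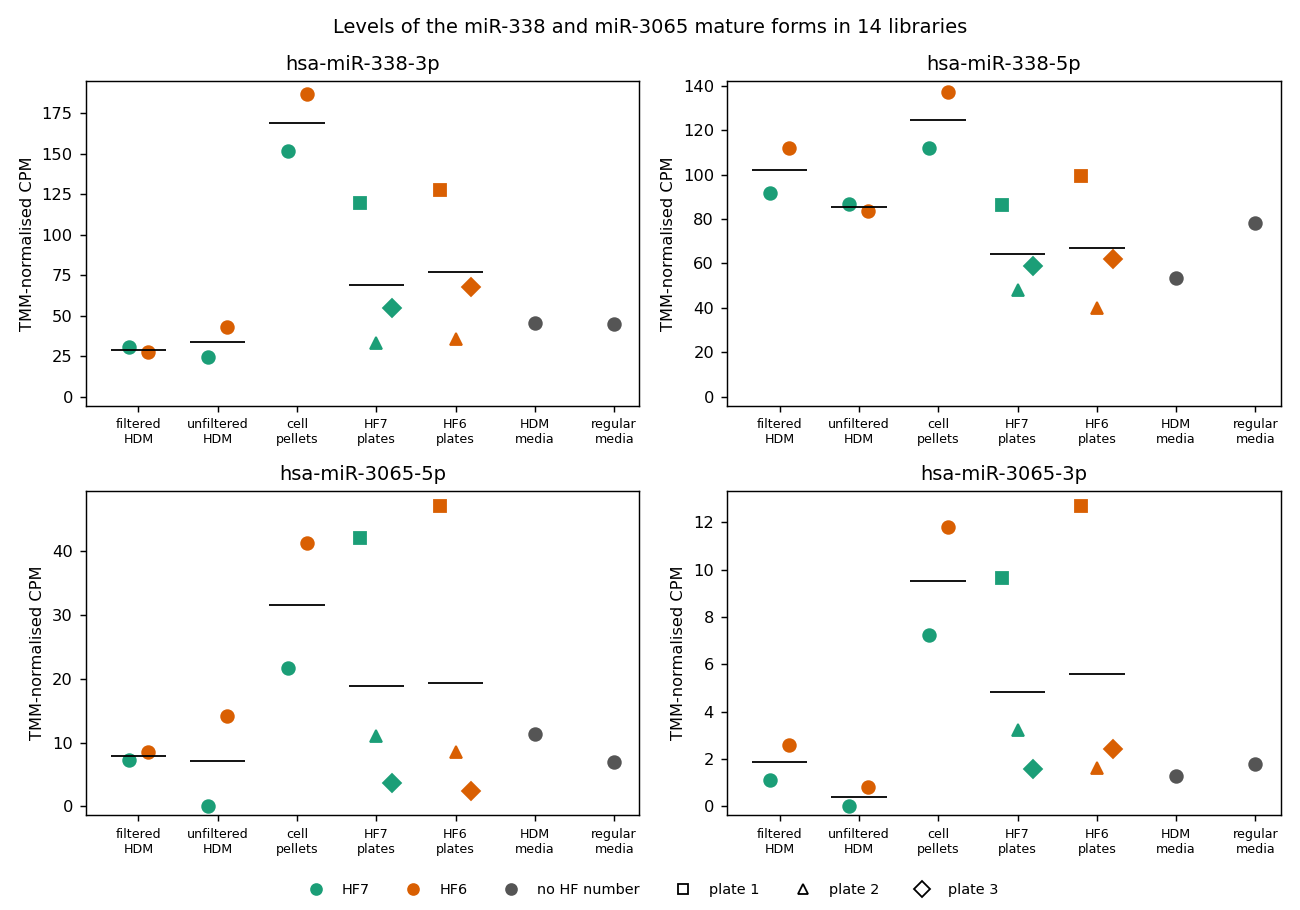
TMM-normalised CPM of the 4 mature forms (1 panel each, own vertical axis) in 14 libraries. Points are libraries, lines are group means, colour gives the HF number and shape the plate. miR-338-3p, miR-3065-5p and miR-3065-3p are high in pellets and on plate 1, while miR-338-5p stays between 83.7 and 112.2 CPM in the 4 HDM samples.

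HDM samples and pellets were compared to see which miRNAs differ in relative abundance between HDM and the cells. miR-338-3p had the steepest drop among the better-counted members, with a log2 fold of -2.59 ± 0.68 (SE) in filtered HDM and -2.29 ± 0.69 in unfiltered HDM against pellets. Its partner miR-338-5p stood at -0.35 ± 0.47 and -0.65 ± 0.48. miR-3065-5p stood at -2.14 ± 1.21 in filtered and -1.74 ± 1.27 in unfiltered HDM, and miR-3065-3p at -2.46 ± 1.12 and -3.83 ± 1.49. For the miR-3065 forms the standard error exceeded 1 on the log2 scale where few reads were counted, and the unfiltered folds rest on a library with 0 counts of both, so their size is not a bound. In filtered HDM 3 of 4 members lay below both pellets without overlap, where 26.4% of the 534 miRNAs did. In unfiltered HDM all 4 did, where 23.8% did. The test across all miRNAs called 17.8% in filtered and 10.1% in unfiltered HDM. These contrasts chose the members, so nothing is read from those shares. The scaling matters for miR-338-5p: with total counts as the only scaling, its fold was 0.10 in filtered HDM and -0.07 in unfiltered HDM. That scaling moved the median of all miRNAs by over 0.1, to 0.586 in filtered HDM (0.114 with TMM) and to 0.658 in unfiltered HDM (0.0745 with TMM), and miR-338-3p stayed low under it, at -2.15 and -1.75. The summed colon epithelium markers also separated these groups, at 199600 to 212500 CPM in HDM, 223800 to 254100 CPM in pellets and 226800 to 244900 CPM on plates, and the shallowest library is an HDM sample. The 3 muscle markers summed to 4.86 to 13.3 CPM in HDM, 24.0 to 95.7 CPM in pellets and 7.17 to 19.9 CPM on plates, and the 3 erythroid markers to 0 to 2.42, 6.38 to 8.88 and 4.13 to 8.02 CPM. The 4 leukocyte markers summed to 1379 to 1547 CPM in filtered and 2542 to 2949 CPM in unfiltered HDM, against 2756 to 2795 CPM in pellets. These marker sums are CPM by total counts, without TMM scaling, unlike the levels of the members. The part of these markers and of depth in the result was not tested.

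In fitted folds miR-338-3p and both miR-3065 forms differed less between HDM and plate cells than between HDM and pellets. Taking both HDM groups against both plate groups, the log2 fold was -1.20 ± 0.44 for miR-338-3p, 0.46 ± 0.30 for miR-338-5p, -1.11 ± 0.80 for miR-3065-5p and -2.12 ± 0.88 for miR-3065-3p. The miR-3065 values are unsteady: with the replicate number as a block miR-3065-5p stood at -0.43, and limma-voom gave -0.50 for miR-3065-5p and -1.21 for miR-3065-3p. No member separated HDM samples from all 6 plates, where 8.8% of miRNAs were lower and 8.43% were higher without overlap. The arms of miR-338 thus pointed in opposite directions, the 3p arm below plates on average and the 5p arm above. Pellets exceeded plate cells by a log2 fold of 1.24 ± 0.49 for miR-338-3p, 0.96 ± 0.37 for miR-338-5p, 0.83 ± 0.91 for miR-3065-5p and 1.03 ± 0.81 for miR-3065-3p. Here the replicate block gave 1.47 and limma-voom 1.62 for miR-3065-5p, and limma-voom 1.61 for miR-3065-3p. Both miR-338 arms were higher in pellets than on all plates without overlap, as were 12.7% of all miRNAs, whereas the miR-3065 forms reached the range of the pellets on plate 1. These contrasts share the pellets and the HDM samples with those above and are no separate evidence.

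**Figure D2:**
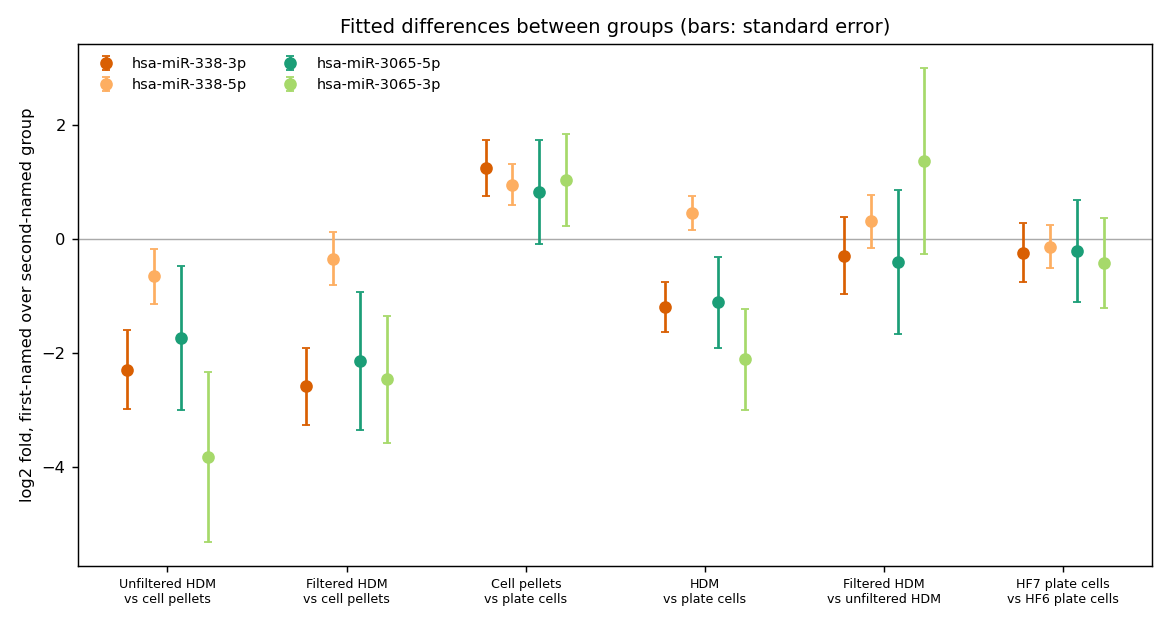
Fitted log2 folds of the 4 mature forms in the 6 comparisons, first-named over second-named group, with standard errors as bars. The miR-338-5p fold stays between -0.65 and 0.96, and the bars of the miR-3065 forms are the widest.

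Filtered HDM was compared with unfiltered HDM to ask what filtration changes. This contrast played no part in choosing the members, though its libraries entered the choice. None of the members passed the test. The log2 fold of miR-338-3p was -0.30 ± 0.68 (95% interval -1.75 to 1.15) and of miR-338-5p 0.31 ± 0.47 (-0.71 to 1.32), both at adjusted p = 0.997 in edgeR. miR-3065-5p stood at -0.40 ± 1.27 and miR-3065-3p at 1.37 ± 1.64, also at adjusted p = 0.997 in edgeR. The miR-3065 intervals ran from -3.13 to 2.33 for the 5p and from -2.15 to 4.89 for the 3p form. These intervals leave room for a log2 change beyond 1 in either direction for miR-338-3p and both miR-3065 forms, and upward for miR-338-5p. Of all 534 miRNAs 0 passed (0%), 10 (1.87%) had an unadjusted p under 0.05, and DESeq2 and limma-voom called 0 each. A fit of these 4 libraries alone called 14 miRNAs. miR-338-5p and miR-3065-3p were higher in filtered HDM without overlap, as were 21.3% of all miRNAs. For miR-3065-3p this rests on 7 and 2 counts against 2 and 0. The 0 is in the shallowest library, where 3 counts equal 14.6 CPM by total counts.

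HF7 plate cells were compared with HF6 plate cells, a contrast that did not choose the members. The plate libraries did enter the choice, since low levels on some plates were known. No member passed here either. The folds were -0.24 ± 0.51 for miR-338-3p (95% interval -1.34 to 0.86), -0.14 ± 0.38 for miR-338-5p (-0.94 to 0.67), -0.21 ± 0.90 for miR-3065-5p and -0.42 ± 0.79 for miR-3065-3p, all at adjusted p = 0.999 in edgeR. Of all 534 miRNAs 0 passed (0%), 6 (1.12%) had an unadjusted p under 0.05, and DESeq2 and limma-voom called 0 each. No member separated the 2 sets of plates, as 2.62% of all miRNAs did by being higher and 1.69% by being lower on HF7 plates. The spread within each set followed plate number: plate 1 averaged 124 ± 6.08 CPM of miR-338-3p (n = 2), plate 2 34.4 ± 1.57 and plate 3 61.1 ± 9.10. For miR-3065-5p the same plates averaged 44.6 ± 3.64, 9.81 ± 1.81 and 3.04 ± 0.85 CPM. The folds and intervals above leave plate number out. With plate number as a block, the standard error of miR-338-3p was 0.23 and its fold -0.22 (edgeR adjusted p = 0.996), and miR-3065-5p changed sign, to 0.06 (edgeR adjusted p = 0.996). In that fit miR-338-5p stood at -0.07 ± 0.23 and miR-3065-3p at -0.10 ± 0.51.

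The balance of the 2 arms of miR-338 does not depend on scaling between libraries, since both arms are counted in the same library. The 3p arm made up 19.6% (95% exact Clopper-Pearson interval 15.7 to 24.0) and 25.2% (19.6 to 31.5) of the hairpin's reads in filtered HDM from HF6 and HF7, and 34.1% (28.8 to 39.6) and 22.2% (8.62 to 42.3) in unfiltered HDM. In pellets it made up 57.7% (54.4 to 60.9) and 57.5% (45.4 to 69.0). So the 5p arm led in all 4 HDM samples and the 3p arm in both pellets. On HF7 plates 1, 2 and 3 the 3p share was 58.1, 40.9 and 48.2%, and on HF6 plates 56.3, 47.0 and 52.2%. Plate 1 matched the pellets, and plates 2 and 3 were lower, yet the lowest plate remained above the highest HDM sample. Means were 25.3 ± 6.29% in HDM (n = 4), 57.6 ± 0.0914% in pellets (n = 2), 57.2 ± 1.28% on plate 1 (n = 2) and 47.0 ± 4.69% on plates 2 and 3 (n = 4). Intervals cover counting error only, and the unfiltered HF7 sample rests on 27 reads. Since the 3p count entered the choice of members, the difference is given without a test.

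**Figure D3:**
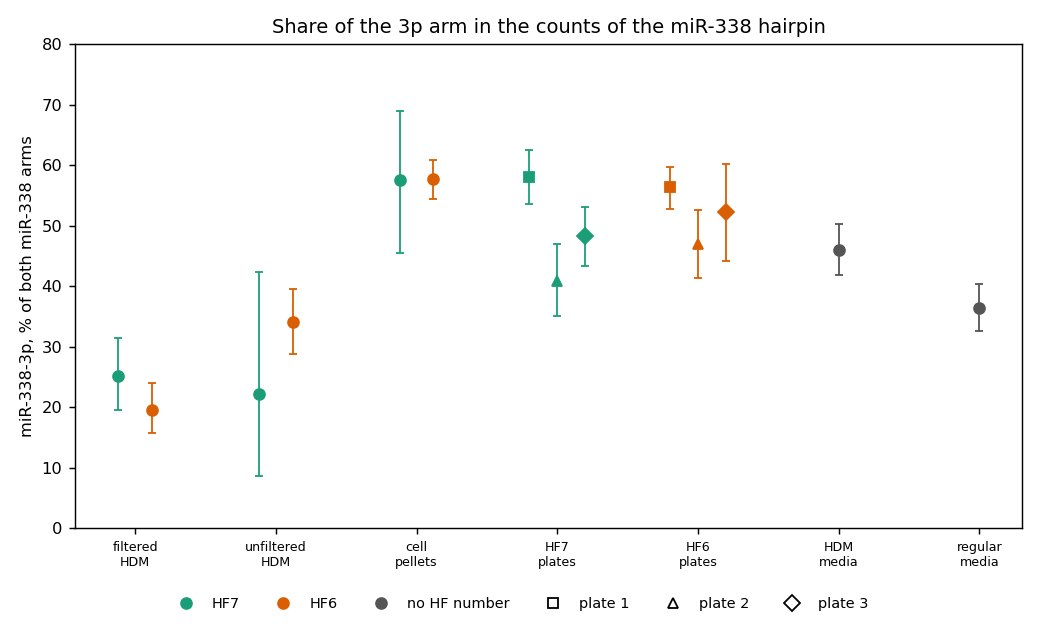
miR-338-3p as a percentage of the reads of both miR-338 arms in each library, with exact 95% binomial intervals. HDM samples lie between 19.6 and 34.1%, and all cell samples lie between 40.9 and 58.1%.

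Other hairpins give the scale for this shift. Because miR-338-3p was chosen by its low level in HDM and on some plates, the place of its hairpin among the others is a description that the choice itself favours, and it supports nothing further. Of the table's hairpins, 141 had both arms among the tested miRNAs. The mean log2 ratio of 3p to 5p reads (0.5 added to each count) was -1.57 for miR-338 in HDM, against 0.44 in pellets and 0.02 on plates. The difference of HDM from plates, -1.59, was the lowest of the 141 hairpins, whose median was -0.00332, and 5 were as large in either direction. Against plates 2 and 3 alone it was -1.39, the fourth lowest. Against all plates it was the fourth lowest, at -1.43, with 5 in place of 0.5 added to each count, and the second lowest, at -1.54, without the unfiltered HF7 sample (both settings chosen after seeing the data). The difference from pellets, -2.0, was one of 10 as low or lower, and 28 were as large in either direction, with a median of 0.0714 over all 141. Without the unfiltered HF7 sample 14 were as low or lower. The 4 HDM samples stood clear of both pellets, in either direction, for 58 of 141 hairpins, miR-338 among them. All 4 HDM samples fell below all 8 cell samples for 5 of 141 hairpins (3.55%). These were miR-23a, miR-27a, miR-29c, miR-338 and miR-574, named after their values were seen. Among these 5, the mean ratio was negative in HDM and positive in pellets and on plates for miR-338 and miR-574, and it was positive throughout for the other 3. For miR-338 the plates were split, with a mean of 0.42 on plate 1 and -0.17 on plates 2 and 3. The miR-3065 hairpin shifted less, by -0.39 from pellets and -0.44 from plates, and 46 and 38 hairpins were as low or lower.

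**Figure D4:**
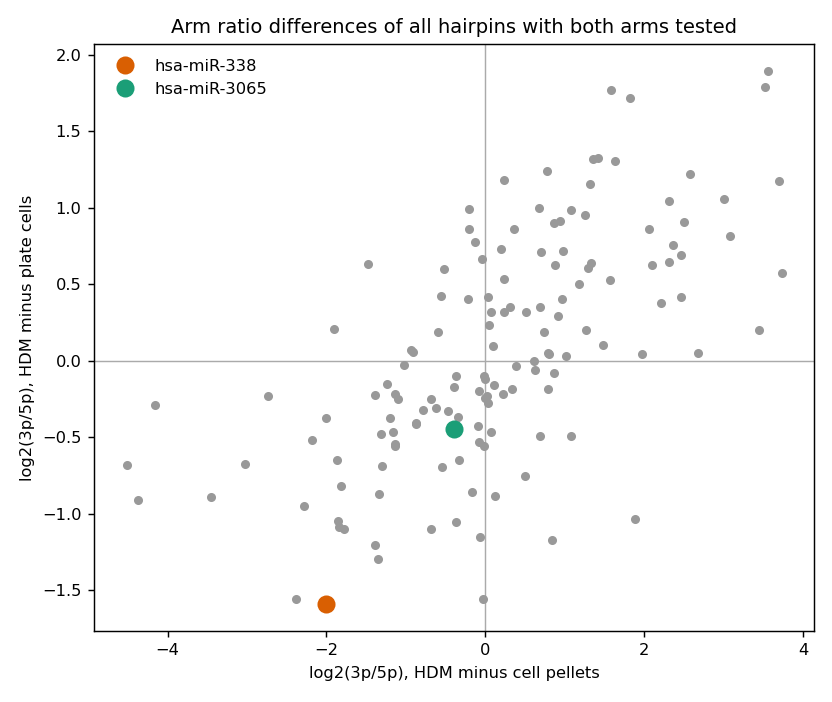
Difference in mean log2(3p/5p) between HDM and cell pellets (horizontal) and between HDM and plate cells (vertical) for 141 hairpins, 1 point each. miR-338 lies at -2.0 and -1.59, at the lower edge, and miR-3065 near the middle.

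The miR-3065 hairpin was 5p-led wherever it was well counted. miR-3065-5p made up 76.7 and 86.7% of its reads in filtered HDM and 94.6% in the HF6 unfiltered sample, against 77.8 and 75.0% in pellets. On plates 1 and 2 it held between 77.6 and 84.1%. On plate 3 it held 70.0% of 20 reads for HF7 and 3 of 6 reads for HF6, with intervals of 45.7 to 88.1 and 11.8 to 88.2, so no difference was detectable at this depth.

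The share of the antisense strand was lowest on plate 3 for the pair of miR-338-3p, apart from the unfiltered HF7 sample with its 6 reads, and lower in HDM than in every cell sample for the pair of miR-338-5p. miR-3065-5p made up 23.7 and 19.1% of its pair with miR-338-3p in filtered HDM, 24.6 and 0% in unfiltered HDM (0 of 6 reads), and 18.1 and 12.5% in pellets. These overlap. On plate 1 it held 26.0% (HF7) and 26.9% (HF6), on plate 2 25.0 and 19.4%, and on plate 3 6.25% (3.46 to 10.3) and 3.49% (0.725 to 9.86). Plate 3 was thus far below plates 1 and 2 in both sets. The other pair behaved differently. miR-3065-3p made up 2.26 and 1.21% of its pair with miR-338-5p in filtered HDM and 0.957 and 0% in unfiltered HDM. In pellets it made up 7.93 and 6.06%. On plates it held 10.1 and 11.3% (plate 1), 6.25 and 3.87% (plate 2) and 2.59 and 3.80% (plate 3), HF7 first in each. The HDM samples lay below every cell sample for this pair, but intervals overlap. Those of the HF7 pellet (0.743 to 20.2%) and HF6 plate 2 (1.57 to 7.81%) reach into the HDM values. So do those of HF7 plate 3 (0.955 to 5.54%) and HF6 plate 3 (0.79 to 10.7%). HDM intervals reached up to 4.6 and 4.31% (filtered) and 3.41 and 16.1% (unfiltered), HF6 first in each, above the lowest cell sample. The single libraries of HDM media and regular media, at 2.31 and 2.25%, lay level with the highest HDM sample.

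**Figure D5:**
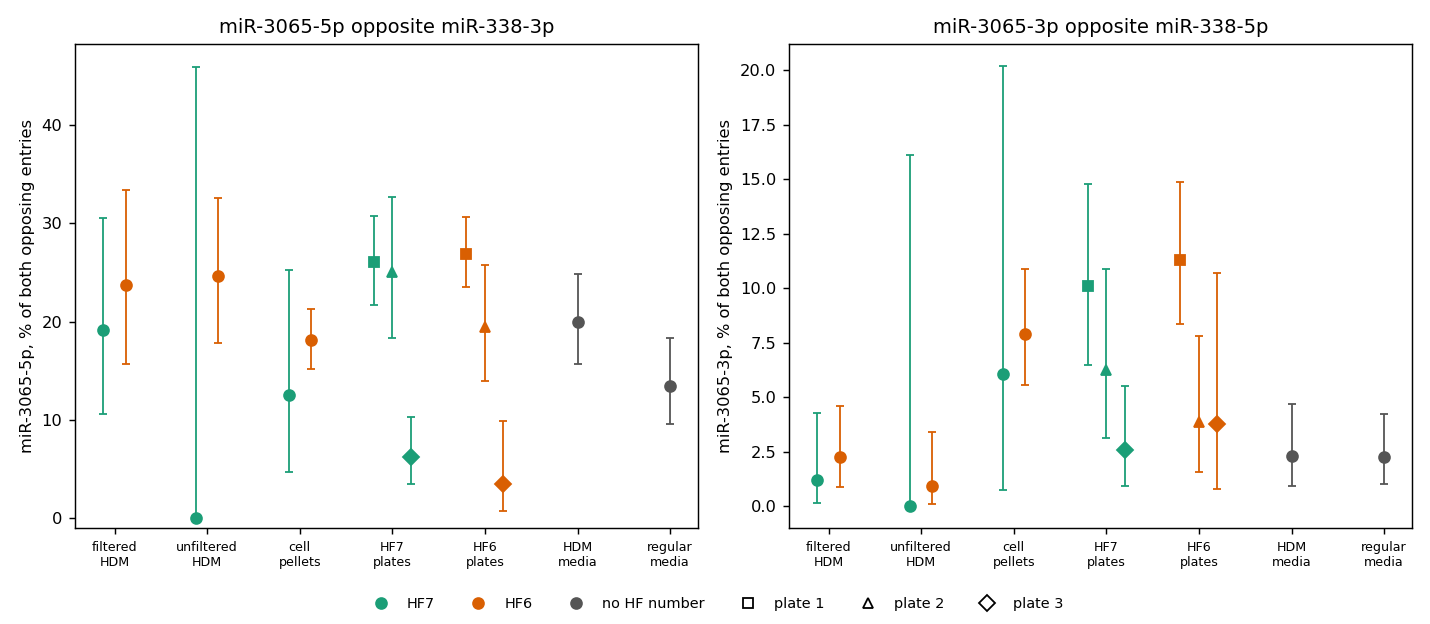
Antisense share of each opposing pair by library with exact 95% binomial intervals, for miR-3065-5p against miR-338-3p (left) and miR-3065-3p against miR-338-5p (right). Plate 3 is low on the left at 6.25 and 3.49%, and HDM samples are low on the right, at or under 2.26%.

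The table holds 32 pairs of entries that overlap by at least 10 bases on opposite strands, and 14 of them had at least 10 counts on both sides. Over all libraries the scarcer side held a median of 9.23% of a pair among these 14. The limit of 10 counts falls on the scarcer side, so this median depends on it. miR-3065-5p held 20.1% of its pair and miR-3065-3p held 4.995%. For comparison, miR-203a-5p held 26.8% beside miR-203b-3p, miR-3074-3p 7.35% beside miR-24-1-5p, miR-374c-5p 5.85% beside miR-374b-3p, and miR-3074-5p 0.0585% beside the abundant miR-24-3p.

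A list of oligodendrocyte and neural miRNAs, the setting in which miR-338 is best known, is given beside it. Of 14 members 8 were tested, and the test called 1 higher and 0 lower in unfiltered HDM against pellets, where 5.24% of all miRNAs were called higher and 4.87% lower. The other 5 comparisons called 0 of its members, while 17.8% of all miRNAs were called in filtered HDM against pellets, 7.12% in pellets against plates and 9.18% in HDM against plates. The list's median log2 fold was -0.68 in filtered and -0.75 in unfiltered HDM, against 0.114 and 0.0745 over all miRNAs. The 1 called was miR-219a-1-3p (edgeR adjusted p = 0.0437). It had 11 and 1 counts in the unfiltered samples and none in either pellet, so that no fold can be given beyond these counts. In the HF7 pellet 3 counts equal 9.57 CPM by total counts, above the highest level of miR-219a-1-3p in any library, 4.90 CPM. In the deeper HF6 pellet, which also had none, 3 counts equal 0.783 CPM. miR-9-5p, a regulator of neural progenitors, stood at -1.52 ± 0.66 in filtered and -1.12 ± 0.71 in unfiltered HDM, miR-132-3p, which neuronal activity induces, at -1.03 ± 0.57 and -0.92 ± 0.59, miR-128-3p at 0.82 ± 0.31 and 0.22 ± 0.31, and miR-7-5p at -0.51 ± 0.26 and -0.57 ± 0.26, none of them called. miR-219a-5p, the usual partner of miR-338 in oligodendrocytes, had 3 and 3 counts in filtered HDM, 4 and 0 in unfiltered HDM, 4 and 3 in pellets and between 4 and 23 on plates. miR-219a-1-3p and miR-219a-5p were named after their values were seen.

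The miRNAs whose level followed miR-338-3p most closely were sought among 284 with a mean of at least 20 CPM, by Pearson correlation of log2 CPM over the 14 libraries. The libraries fall into few groups that differ in collection and depth, so the coefficients describe those groups and carry no p. miR-29c-3p came first at 0.955, with 122 CPM in HDM, 566 in pellets, 322 on plate 1 and 130 on plates 2 and 3. Next were miR-210-3p at 0.929, miR-301b-3p at 0.924, miR-215-5p at 0.918, miR-27a-3p at 0.915, miR-141-3p at 0.912, miR-96-5p at 0.891 and miR-32-5p at 0.883. Of these 8, miR-29c-3p and miR-27a-3p belong to hairpins whose 3p to 5p ratio in HDM also fell below all cell samples. The most opposite were miR-500a-3p at -0.956, miR-501-3p at -0.946, miR-484 at -0.928 and miR-502-3p at -0.919, of which the miR-500 family members are near-identical copies that counting could split. Within the locus the correlation with miR-338-3p was 0.862 for miR-3065-3p, 0.700 for miR-3065-5p and 0.468 for miR-338-5p, so that the antisense forms followed miR-338-3p more closely than its own partner arm did. By rank (Spearman) the values were 0.675, 0.6 and 0.248 in the same order. Both antisense forms, at 4.13 and 16.2 CPM, lie under the 20 CPM asked of the other miRNAs and rest on few counts.

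In the single media libraries, which have no replicate, miR-338-3p had 252 counts in HDM media and 224 in regular media, and miR-338-5p 296 and 391. The 3p share was 46.0% (41.8 to 50.3) in HDM media and 36.4% (32.6 to 40.4) in regular media. Both lie above the 4 HDM samples, and the regular media library lies below every cell sample. miR-3065-5p had 63 counts in HDM media and 35 in regular media, or 63 of 315 and 35 of 259 reads of its pair with miR-338-3p, and miR-3065-3p had 7 and 9. These values compare 2 libraries and not 2 conditions.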

How the data were processed

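Small RNA libraries of DiFi cells, HDM and media were prepared with a NEXTflex small RNA kit after miRNeasy extraction, per the labels' protocols. The authors deposited 1 table of expected counts per mature miRNA for 14 of the 15 samples in the labels. Adapters were trimmed with cutadapt 2.10, and Bowtie 1.3.1, FastQC and GRCh38 are named, per the submitters' processing notes. The miRNA release, read filters, rule for fractional counts and use of strand are not given in the sources used here. The members held whole counts only, and other fractional values were rounded.

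TMM scaling, the edgeR 4.0.16 low-count filter and 1 quasi-likelihood fit of 12 replicated libraries in 5 groups (534 miRNAs, 99.96% of counts, 7 residual degrees of freedom) gave log2 folds. p-values were adjusted by Benjamini-Hochberg over all tested miRNAs, with a threshold of 0.05. Filtered against unfiltered HDM and HF7 against HF6 plates were tested, and member folds of the other comparisons are descriptive. The pipeline was tested on simulated data. Alternatives were DESeq2 1.42.0, limma 3.58.1 (voom), other scalings and filters, a replicate block, only the libraries compared, and leaving out each library. Arm and strand shares carry exact binomial intervals, which cover counting error only, as reads have no molecular identifiers. 3 counts equal 0.613 to 14.6 CPM.

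Plate numbers paired the plate samples in the replicate block only, since deviations of same-numbered plates correlated at 0.759, 0.595 and 0.506. The main fit, with its intervals and p-values, left this pairing out. The members and lists were chosen with earlier results of these data known. Named miRNAs are the members, the 8 most and 4 least correlated with miR-338-3p, neural miRNAs of at least 20 CPM, and opposite-strand partners with at least 10 counts on both sides, of which some are given.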

Additional observations from a re-analysis of the deposited data

How the results depend on the processing

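The folds of miR-338-3p against pellets stayed negative under every alternative run. Total counts as the only scaling gave -1.75 for miR-338-3p and -0.074 for miR-338-5p in unfiltered HDM, and -2.15, 0.10 and -1.65 for miR-338-3p, miR-338-5p and miR-3065-5p in filtered HDM, against pellets. Without a filter on low counts miR-338-5p stood at -0.49 in unfiltered HDM, and limma-voom gave -3.13 for miR-3065-3p. Calls between filtered and unfiltered HDM numbered 2 without the filter, 3 with the replicate block and 14 with only the libraries compared, against 0 otherwise. Deviations of samples with the same HF number correlated at 0.103 (pellet and unfiltered HDM), -0.0219 (pellet and filtered HDM) and 0.0515 (filtered and unfiltered HDM). With groups of 2 libraries and a shallow HF7 pellet and HF7 unfiltered sample, these values cannot decide whether same-numbered samples share a culture. With the replicate block on plate numbers, the fold of miR-3065-5p changed sign, to 0.056, between HF7 and HF6 plates, and the block changed no call there.

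Leaving out each library in turn gave ranges, in the order miR-338-3p, miR-338-5p, miR-3065-5p and miR-3065-3p. Unfiltered HDM against pellets spanned -2.82 to -1.92, -0.71 to -0.38, -9.31 to -0.97 and -7.63 to -3.18. Filtered HDM against pellets spanned -2.58 to -2.27, -0.36 to -0.034, -2.27 to -1.34 and -3.08 to -1.77. Pellets against plates spanned 0.98 to 1.54, 0.69 to 1.16, 0.08 to 1.68 and 0.39 to 1.84. HDM against plates spanned -1.43 to -0.84, 0.34 to 0.67, -4.85 to -0.24 and -3.98 to -1.29. Filtered against unfiltered HDM spanned -0.59 to 0.41, 0.23 to 0.49, -0.85 to 7.35 and 0.69 to 5.34, with edgeR adjusted p of at least 0.947. HF7 against HF6 plates spanned -0.86 to 0.42, -0.37 to 0.32, -1.5 to 1.56 and -1.33 to 1.24, with edgeR adjusted p of at least 0.982. For the miR-3065 forms most extremes came from leaving out the HF6 unfiltered sample, which leaves the library with 0 counts, the HF6 pellet, or plate 1 of HF7 or HF6. The cause of the other changes was not tested. A filter of 50 counts in 2 libraries removed miR-3065-3p, so it has no value there. Depth limits the miR-3065 forms most, with 0 counts in the shallowest library.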
